A study of Gallus gallus with 12 samples.

Results

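Cells of chicken embryos that had been made to overexpress human miR-302 were compared with unlabelled neighbouring cells by small RNA sequencing. The comparison used 6 of the series' 12 libraries, chosen by their labels: 3 of GFP-positive (GFP+) cells labelled as overexpressing human miR-302 and 3 of GFP-negative (GFP−) cells with the same label. Values were taken for all 850 miRNA hairpins of a chicken-aligned table and, as a check, for all 1913 hairpins of a human-aligned table of the same libraries. Per the labels, a GFP expression vector was brought into embryos of both arms by electroporation together with a construct, and the construct of this arm, abbreviated OE, overexpressed human miR-302. The construct of the other arm, abbreviated KD, was directed at the miR-302 of the chick, and its samples are labelled as knocked-down, whereas the protocol speaks of deletion. All embryos grew to Hamburger-Hamilton stages 4 to 5, the time of gastrulation, and cells were sorted directly into Trizol. The GFP− cells therefore came from electroporated embryos, and no group electroporated with GFP alone was analysed here. The labels give neither the promoter of the construct, nor the number of embryos behind a library, nor the cell types in each sort. The replicates are separately labelled samples, so a p-value reflects how far these samples scatter, and that scatter may be technical. In such sorted pools, fewer cells of a type and less RNA per cell cannot be told apart.

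A miRNA is cut from a hairpin precursor and guides a silencing complex to messenger RNAs that pair with its seed, the bases near its 5′ end. The miR-302 members and miR-367 are made from a single cluster that is active in pluripotent and early embryonic cells of vertebrates, and the miR-302 members share a seed. The let-7 family accumulates as cells differentiate, and in vertebrate stem cells it stands against the pluripotent state that the miR-302 family favours.

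The GFP+ libraries were shallow. They held 3856, 1292 and 1789 chicken-aligned hairpin reads in replicates 1 to 3, against 7546, 52653 and 277637 in the GFP− libraries, so that each GFP+ library was shallower than each GFP− library. The deposited values are normalized reads, and 1 read was worth 6.68, 24.4 and 15.9 normalized reads in the GFP+ libraries and 3.91, 0.819 and 0.143 in the GFP− libraries. A count of 0 allows up to 3 reads, that is 20.1, 73.1 and 47.6 normalized reads in the GFP+ libraries, and floors and intervals given here cover counting error only. At least 10 reads fell on 51, 17 and 31 hairpins in the GFP+ libraries and on 72, 129 and 177 in the GFP− libraries. Hairpins averaging 10 or more normalized reads across the 12 libraries were tested. They made up 15.5% of the 850 chicken hairpins, and 82 of them had a read in all 3 GFP+ libraries. The part of depth in the differences below was not tested.

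The introduced human miR-302 was examined first. Reads of human and chick miR-302 can align to both references, so the number of human-aligned reads was divided by the number of chicken-aligned reads of the same member within each library, a ratio that does not depend on the scaling between libraries. For miR-302a this ratio was 21.5%, 8.11% and 17.5% in the GFP+ libraries, against 3.53%, 4.61% and 2.58% in the GFP− libraries. For miR-302d it was 14.9%, 15.9% and 23.6% in GFP+ cells, against 4.99%, 5.34% and 5.35% in GFP− cells. For both members every GFP+ library lay above every GFP− library. The mean ratio of miR-302a was 15.7% ± 6.88 in GFP+ cells and 3.57% ± 1.02 in GFP− cells (SD, n = 3 each), 4.31-fold on the log scale, and that of miR-302d was 18.2% ± 4.77 and 5.23% ± 0.206, or 3.44-fold. The exact two-sided permutation test gave p = 0.1 for each, the smallest p that 3 libraries against 3 allow. A higher ratio can come from more human-aligned or fewer chicken-aligned reads. The mean level of hsa-mir-302a was 198.8 normalized reads in GFP+ and 116.4 in GFP− cells, that of gga-mir-302a 1141 and 2997. In replicate 2 hsa-mir-302a stood at 231.9 and 231.6. For the d members the means were 472.1 and 189.1 (human-aligned) and 1963 and 3544 (chicken-aligned). The folds of the ratio are thus not folds of human miR-302.

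The KD arm, which received no human construct per the labels, gives the background of the same measure. There the miR-302a ratio averaged 2.76% ± 1.72 in GFP+ cells and 2.37% ± 0.238 in GFP− cells, and the miR-302d ratio 3.43% ± 0.733 and 3.97% ± 0.439 (SD, n = 3 each). The other two members did not separate the groups in this way. The miR-302b ratio was 93.9%, 62.6% and 91.3% in OE GFP+ cells, against 98.6%, 101% and 105% in OE GFP− cells, and in KD cells it averaged 87.9% in GFP+ and 102% in GFP− libraries. All GFP+ values of miR-302b were thus below the GFP− values (exact permutation p = 0.1), and with normalized values in place of reads the log2 difference of -0.32 turned to 0.08. For miR-302c it was 78.05%, 52.4% and 84.4% in OE GFP+ cells, against 63.6%, 63.5% and 67.5% in OE GFP− cells, with overlapping groups (exact permutation p = 0.6). In single KD libraries the miR-302b ratio lay between 63.0% and 107%, so high ratios of this member also occurred without a human construct.

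**Figure D1:**
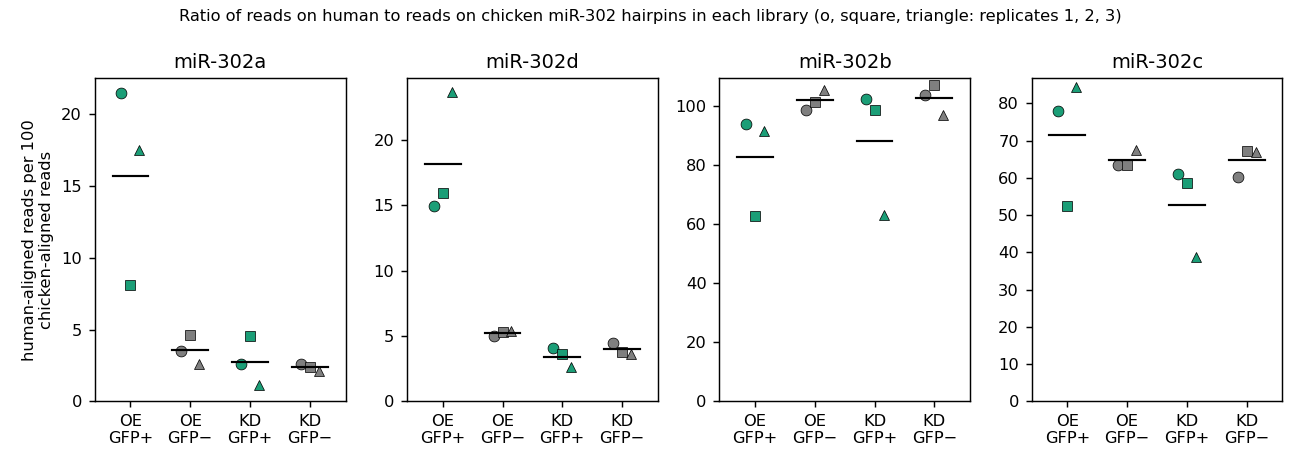
Human-aligned reads per 100 chicken-aligned reads of the same miR-302 member, in each of the 12 libraries (points, with the shape giving the replicate) with the group mean (line); OE is the overexpression arm and KD the knockdown arm. For miR-302a and miR-302d the OE GFP+ libraries lie at 8.11 to 23.6 and all other groups at 1.13 to 5.35.

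The same comparison over other miRNAs sets the scale. Across the 102 hairpin names found in both tables with at least 10 reads in each, the median log2 difference of this ratio between OE GFP+ and OE GFP− cells was -0.13, and 11 names (10.8%) had every GFP+ library above every GFP− library. The 95th percentile was 2.02, between miR-302a and miR-302d, which ranked 5 and 9 of the 102. Above miR-302a stood mir-130a at 3.76, mir-301a at 3.40, mir-31 at 3.14 and mir-367 at 2.24, all with every GFP+ library above and from 12, 4, 4 and 0 chicken-aligned reads in GFP+ cells. An offset of 0.5 reads was added to each count before the log2 ratio. For mir-367, mir-190a and mir-223, all among the 11 names, both tables had 0 reads in GFP+ cells, so their GFP+ ratios came from the offset alone. Of the 17 names with at least 50 chicken-aligned reads in the OE GFP+ libraries, 2 (11.8%) had every GFP+ library above. This share is near the 10.8% of all 102 names. The cut of 50 reads was not among the planned settings. Just below it, mir-181a-2 and mir-130b, with 35 and 32 such reads, also had every GFP+ library above, at log2 differences of 0.59 and 0.27. The 2 names above the cut were miR-302a and miR-302d, with log2 differences of 2.11 and 1.78. The number of human-aligned reads behind them was small, 23, 6 and 10 reads of hsa-mir-302a and 31, 18 and 26 reads of hsa-mir-302d in the GFP+ libraries, against 14, 258 and 515 and 25, 364 and 1158 reads in the GFP− libraries. Leaving out any of the 6 libraries in turn kept the log2 difference between 1.84 and 2.51 for miR-302a and between 1.58 and 1.91 for miR-302d.

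As levels rather than ratios, no human-aligned family member was called by limma, edgeR or DESeq2. The level of hsa-mir-302d was 244.4, 695.8 and 476.2 normalized reads in GFP+ libraries, against 92.1, 326.8 and 148.5 in GFP− libraries, a log2 fold of 1.26 (SE 0.50) with an adjusted p of 0.161 (limma). It was higher in GFP+ cells in 3 of 3 numbered pairs, although the groups overlapped. hsa-mir-302a had 181.3, 231.9 and 183.1 normalized reads in GFP+ libraries, against 51.6, 231.6 and 66.05 in GFP− libraries, and its log2 fold was 0.87 (SE 0.48; limma adjusted p = 0.346). Its highest GFP− library nearly equalled its highest GFP+ library. hsa-mir-302e, a member with no chick counterpart in the table, had a log2 fold of 1.04 (SE 0.63) from 10, 7 and 3 reads in GFP+ libraries and 6, 108 and 190 reads in GFP− libraries. hsa-mir-302b stood at -0.69 (limma adjusted p = 0.461), and edgeR with the replicate block called it lower (adjusted p = 0.00711, within 0.00711 to 0.849 over all alternatives). hsa-mir-302c stood at -0.18, and the sign of the hsa-mir-302c value flipped when libraries were scaled to their summed hairpin values. hsa-mir-302f had no reads in the 6 libraries, and hsa-mir-367 had none in GFP+ cells, against 0, 7 and 39 in GFP− cells.

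The authors' deposited table of ratios gives GFP+ over GFP− for the same members. In the authors' deposited table the 3 overexpression pairs stand at 3.36, 1.30 and 2.58 for miR-302a and at 1.49, 2.03 and 1.77 for miR-302d. From the human-aligned values, the pair ratios of GFP+ over GFP− were 3.51, 1.001 and 2.77 for hsa-mir-302a and 2.65, 2.13 and 3.21 for hsa-mir-302d. For miR-302b the authors' deposited table has 1.53, 1.004 and 1.11, against 0.867, 0.451 and 0.600 computed here for hsa-mir-302b, and it lists miR-367 at 1 throughout. For miR-302c the authors give 1.26, 0.902 and 1.42, against 1.007, 0.588 and 1.15 for hsa-mir-302c. From the chicken-aligned values the pair ratios were 0.461, 0.393 and 0.317 for gga-mir-302a and 0.728, 0.504 and 0.538 for gga-mir-302b. Those of gga-mir-302c were 0.6555, 0.4924 and 0.7167, and those of gga-mir-302d 0.7102, 0.4933 and 0.5642. The authors' values thus equalled those of neither alignment. The labels do not say how the authors normalized these ratios or which alignment they used.

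The chicken-aligned family members were not higher in GFP+ cells. Reads of human miR-302 can align to them too, so these levels are not those of the chick's own miR-302 alone. All 5 tested members of the chicken-aligned miR-302/miR-367 family, which RefSeq places on chromosome 4, had log2 folds below 0, from -1.35 to -0.67 with a median of -0.77, beside a median of -0.25 over all tested hairpins. gga-mir-302a had 715.2, 1804 and 904.0 normalized reads in GFP+ libraries, against 1551, 4584 and 2855 in GFP− libraries. Its log2 fold was -1.35 (SE 0.48; limma adjusted p = 0.0877), and its groups overlapped, while each GFP+ library was lower than its numbered partner. The level of gga-mir-302b averaged 2281 ± 963.6 in GFP+ and 4117 ± 2328 in GFP− cells (SD, n = 3 each; log2 fold -0.77). That of gga-mir-302d averaged 1963 ± 707.8 in GFP+ and 3544 ± 1855 in GFP− cells (log2 fold -0.77), and that of gga-mir-302c 431.1 ± 136.1 and 721.9 ± 310.9 (log2 fold -0.67). Their groups overlapped too. The summed family level was 5816 ± 2339 normalized reads in GFP+ and 11400 ± 5990 in GFP− cells (SD, n = 3 each), a log2 difference of -0.91 (exact two-sided permutation p = 0.2).

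No family member passed the limma or edgeR test without pairing. DESeq2 without pairing called 1 of the 5 lower, beside 9.85% lower over all tested hairpins. When the replicate number was kept as a block, 4 of the 5 were lower in GFP+ cells by limma, beside 12.9% lower over all tested hairpins. These were gga-mir-302a at limma adjusted p = 0.000528, gga-mir-302b at 0.00787, the d member at 0.0107 and gga-mir-367 at 0.0338. Over all alternatives the adjusted p of gga-mir-302a ranged from 0.000218 to 0.583, that of gga-mir-302b from 0.00787 to 0.661, that of the d member from 0.0107 to 0.624 and that of gga-mir-367 from 0.0192 to 0.246. gga-mir-367 had no reads in the 3 GFP+ libraries, where its GFP− level of 27.3, 17.2 and 13.9 normalized reads would have given 4.94 reads in all. Against the floor of 3 reads over the group, it was at least 1.65-fold lower. gga-mir-1811, its neighbour on chromosome 4, had 26.7, 48.7 and 31.7 normalized reads in GFP+ and 27.3, 66.3 and 36.6 in GFP− libraries, from only 4, 2 and 2 reads in GFP+ cells.

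Over all tested chicken-aligned hairpins, 9 separated the GFP+ from the GFP− cells of the OE arm (limma, Benjamini-Hochberg adjusted p under 0.05). Of these, 7 (5.3%) were higher in GFP+ cells: gga-mir-122-1, gga-mir-122-2 and 5 let-7 hairpins. The 2 that were lower (1.52%) were gga-mir-126 and gga-mir-218-2. With the replicate block limma called 11 higher (8.33%) and 17 lower (12.9%), including all 9. Scaling to the summed hairpin values moved the median log2 fold from -0.25 to -0.01 and gave 10 higher and 1 lower. A fit over all 12 libraries called 14 higher (10.6%) and 20 lower (15.2%). Without regard to any test, 17 hairpins (12.9%) lay in all 3 GFP+ libraries above every GFP− library and 29 (22%) below. edgeR on recovered reads called 5 higher (3.79%) and 1 lower (0.758%), and DESeq2 12 higher (9.09%) and 13 lower (9.85%). Without GFP− replicate 1, or without GFP− replicate 3, 2 higher and 0 lower calls were left. Without GFP+ replicate 1 the calls were 5 higher and 7 lower, and without GFP+ replicate 2 they were 10 higher and 4 lower.

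**Figure D2:**
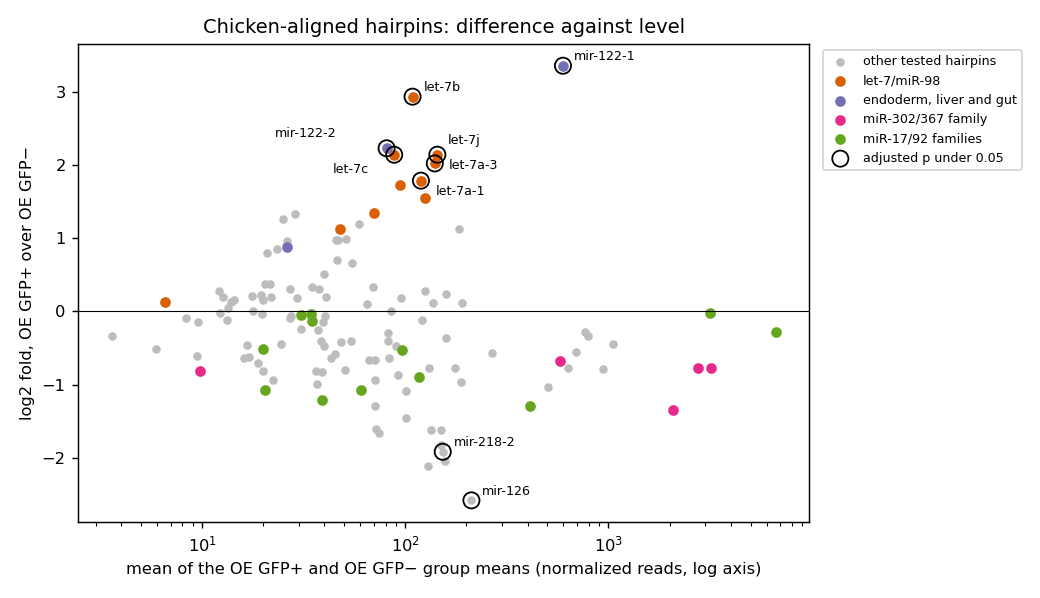
Log2 fold of OE GFP+ over OE GFP− cells (vertical axis, on log2(value + 25)) against the mean of the group means in normalized reads (log axis) for the tested chicken-aligned hairpins; colours mark families and circles the 9 calls. The 2 miR-122 hairpins and the let-7 family lie above 0, the miR-302/miR-367 family below it, and gga-mir-126 lowest at -2.58.

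Of the 10 tested let-7 members limma called 5 higher in GFP+ cells and none lower, beside 5.3% higher and 1.52% lower over all tested hairpins. The median log2 fold of the family was 1.76, beside -0.25 over all tested hairpins. gga-let-7b had 207.2, 219.4 and 206.2 normalized reads in GFP+ libraries, against 0, 13.1 and 6.003 in GFP− libraries. All 3 GFP+ libraries stood close together and far above the GFP− libraries, and the log2 fold was 2.93 (SE 0.38; limma adjusted p = 0.00196). gga-let-7c, another let-7 hairpin, had 147.04, 97.5 and 237.9 normalized reads in GFP+ and 15.6, 22.9 and 8.29 in GFP− libraries (log2 fold 2.14, limma adjusted p = 0.0155). gga-let-7j had 314.1, 243.7 and 190.3 in GFP+ and 19.5, 60.6 and 35.2 in GFP− libraries, with the same log2 fold of 2.14 (limma adjusted p = 0.0136). For both hairpins each GFP+ library lay above all GFP− libraries.

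The remaining let-7 calls were gga-let-7a-3 (238.2 ± 74.98 in GFP+ and 41.3 ± 25.1 normalized reads in GFP− cells, limma adjusted p = 0.0179) and gga-let-7a-1 (198.7 ± 68.6 and 40.2 ± 23.6, limma adjusted p = 0.0395; SD, n = 3 each). gga-let-7a-2 and gga-let-7f, at log2 folds of 1.73 and 1.55, missed the threshold by limma (adjusted p = 0.0624 and 0.0722) and passed it with the replicate block (0.0221 and 0.0243, with ranges of 0.00681 to 0.44 and 0.00943 to 0.494 over all alternatives). The level of gga-let-7g was 140.4, 24.4 and 190.3 normalized reads in GFP+ cells, where the middle value is 1 read, against 23.4, 23.8 and 20.4 in GFP− cells. Near-identical let-7a copies can share reads, so their levels are not independent. gga-let-7j had 69 reads in GFP+ and 325 in GFP− cells, close to the 68 and 337 of gga-let-7a-3. Whether it shares reads with the let-7a copies was not tested, so the 5 let-7 calls may not be separate observations. As a share of all chicken-aligned hairpin reads the family made up 6.87% (95% Wilson interval 6.12 to 7.72), 3.95% (3.02 to 5.15) and 6.54% (5.49 to 7.78) in GFP+ libraries, against 0.504% (0.367 to 0.690), 1.05% (0.963 to 1.14) and 0.571% (0.544 to 0.600) in GFP− libraries. No GFP+ interval reached a GFP− interval.

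miR-122, the miRNA that dominates the vertebrate liver, showed the highest fold on the log2(value + 25) scale. By the ratio of group means gga-let-7b was higher, at 33.1-fold, against 13.99-fold for gga-mir-122-1. The level of gga-mir-122-1 was 788.7, 731.2 and 1824 normalized reads in GFP+ libraries, against 50.8, 106.5 and 81.8 in GFP− libraries, a log2 fold of 3.35 (SE 0.45; limma adjusted p = 0.00196). The GFP+ values rest on 118, 30 and 115 reads, and no GFP+ library came near the GFP− range. It made up 3.94% ± 2.19 of hairpin reads in GFP+ and 0.208% ± 0.0374 in GFP− cells (SD, n = 3 each), and ranked 6 among hairpins in GFP+ and 50 in GFP− cells. gga-mir-122-2, a near-identical copy that may share its reads, had 200.5, 121.9 and 126.9 normalized reads in GFP+ and 3.91, 19.7 and 13.01 in GFP− libraries (log2 fold 2.23, limma adjusted p = 0.0112).

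Of the 8 hairpins in the list of endoderm, liver and gut miRNAs, 3 were tested, 2 were higher and none lower by limma, beside 5.3% higher and 1.52% lower over all tested hairpins. The 2 are the miR-122 copies that may share reads. The summed level of that list was 974.9 to 1982 normalized reads in GFP+ and 66.4 to 134.3 in GFP− libraries. Its other tested member, the endocrine and gut miRNA gga-mir-375, had 20.1, 97.5 and 15.9 normalized reads in GFP+ and 7.81, 4.91 and 11.6 in GFP− libraries (limma adjusted p = 0.242), a handful of reads in each GFP+ library. The liver and gut hairpin gga-mir-194 had no GFP+ read, and its GFP− mean of 2.55 normalized reads is below the worth of 1 read in each GFP+ library. Of the 8 hairpins, 4 were at 0 in GFP+ and 3 in GFP− cells. The untested gga-mir-215 averaged 13.4 normalized reads in GFP+ and 0.607 in GFP− cells, from 2 and 8 reads. In the human-aligned table hsa-mir-122 had no read in any OE library, so the miR-122 difference could not be checked there. In that table hsa-mir-192, another liver and gut miRNA, had 71.0, 77.3 and 54.9 normalized reads in GFP+ and 3.69, 8.98 and 6.80 in GFP− libraries, with a log2 fold of 1.55. It missed the threshold by limma (adjusted p = 0.0595) and passed by edgeR (0.0228), DESeq2 (0.00245) and edgeR with the replicate block (0.0495), within a range of 0.0014 to 0.355 over all alternatives. The GFP− means of hsa-mir-192 were 6.49 in the OE arm and 9.81 in the KD arm, so it passed the level filter only through GFP+ cells. Its selection and these calls thus rest on the same high values. Whether cells or RNA of another source took part in these levels was not tested.

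**Figure D3:**
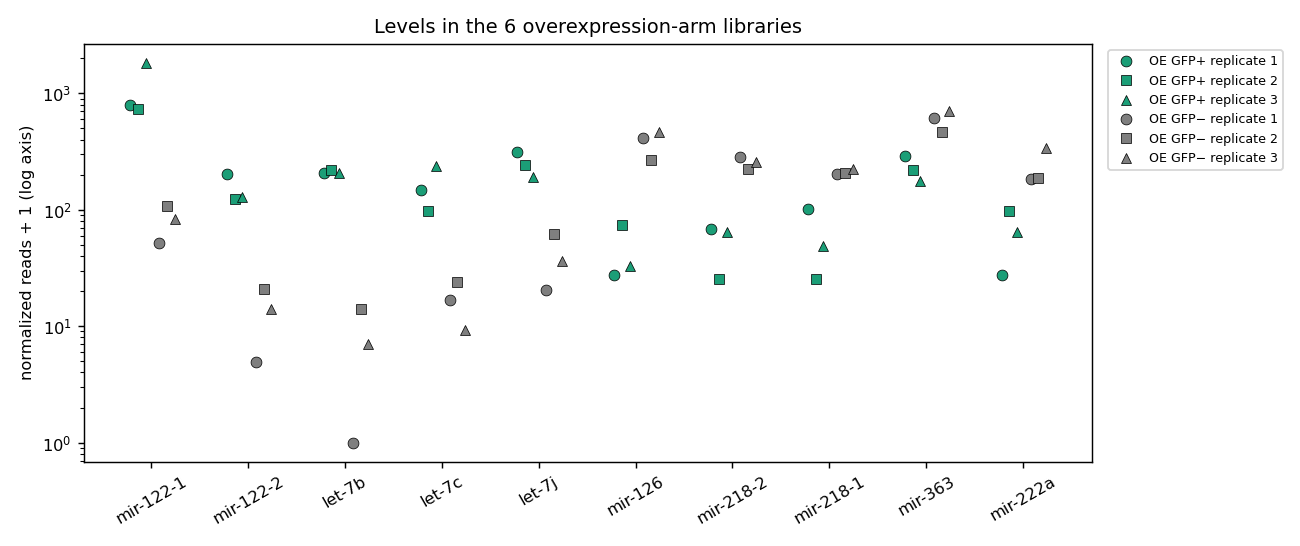
Normalized reads plus 1 (log axis) in each OE GFP+ (green) and OE GFP− (grey) library for 10 chicken-aligned hairpins; the shape gives the replicate. The miR-122 and let-7 hairpins lie wholly higher in GFP+ cells and gga-mir-126, miR-218, gga-mir-363 and gga-mir-222a wholly lower.

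The endothelial miRNA gga-mir-126 had the lowest fold on the log2(value + 25) scale, on which the fold of hairpins without GFP+ reads, such as gga-mir-367, is understated. It stood at 26.7, 73.1 and 31.7 normalized reads in GFP+ libraries, from 4, 3 and 2 reads, against 410.2, 264.6 and 463.5 in GFP− libraries. Every GFP+ library lay below every GFP− library, and the log2 fold was -2.58 (SE 0.42; limma adjusted p = 0.00639). It was the only tested hairpin of the 6 in the blood and endothelium list, whose summed level was 33.4 to 97.5 in GFP+ and 314.5 to 470.8 normalized reads in GFP− libraries. The erythroid gga-mir-451 averaged 15.6 normalized reads in GFP+ and 1.41 in GFP− cells, from 3 and 6 reads, and gga-mir-144, also erythroid, 5.29 and 4.88, from 1 and 22 reads. The myeloid gga-mir-223 had no GFP+ read and averaged 14.6 normalized reads in GFP− cells, from 83 reads. These members thus did not all stand on the side of gga-mir-126. The part of endothelial cells in the result was not tested.

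gga-mir-218-2, whose host genes are SLIT genes in vertebrates and which is known from motor neurons and heart, had 66.8, 24.4 and 63.4 normalized reads in GFP+ and 281.3, 224.4 and 257.3 in GFP− libraries. The groups did not overlap, although the GFP+ values rest on 10, 1 and 4 reads (log2 fold -1.92, SE 0.40, limma adjusted p = 0.0168). Its near-identical copy gga-mir-218-1 had 57.4 ± 38.9 in GFP+ and 211.3 ± 10.8 normalized reads in GFP− cells (SD, n = 3 each; limma adjusted p = 0.0563). gga-mir-363, which has the seed of miR-92, had 287.4, 219.4 and 174.4 in GFP+ and 609.5, 465.2 and 702.4 in GFP− libraries (log2 fold -1.30, limma adjusted p = 0.0563). gga-mir-222a, known from endothelium and cell-cycle control, had 26.7, 97.5 and 63.4 in GFP+ and 183.6, 187.6 and 337.5 in GFP− libraries (limma adjusted p = 0.0593). These 3 were wholly lower in GFP+ cells and passed with the replicate block, each at adjusted p = 0.0174 by limma, with ranges over all alternatives of 0.00387 to 0.292, 0.00309 to 0.273 and 0.00923 to 0.363.

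gga-mir-1a-1, which gives rise to a miRNA of muscle and heart, had a log2 fold of -2.04 (limma adjusted p = 0.0761), and its copy gga-mir-1a-2 one of -2.11 (0.0695). The level of gga-mir-1a-1 was 53.5, 0 and 79.3 normalized reads in GFP+ libraries, against 144.6, 123.7 and 541.2 in GFP− libraries, where replicate 3 was far above the others. Both passed with the replicate block (limma adjusted p = 0.00513 for each, and from 0.00513 to 0.583 over all alternatives). Of the 10 hairpins of the muscle and cardiac list, 3 were tested. The limma fit without the block and edgeR called 0 of these, and DESeq2 called gga-mir-1a-1 (adjusted p = 0.0382) and gga-mir-1a-2 (0.0219). Over all tested hairpins limma without the block called 1.52% lower, edgeR 0.758%, DESeq2 9.85% and limma with the block 12.9%. The list held 0.337%, 0.0774% and 0.671% of hairpin reads in GFP+ and 0.928%, 0.617% and 2.69% in GFP− libraries.

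**Figure D4:**
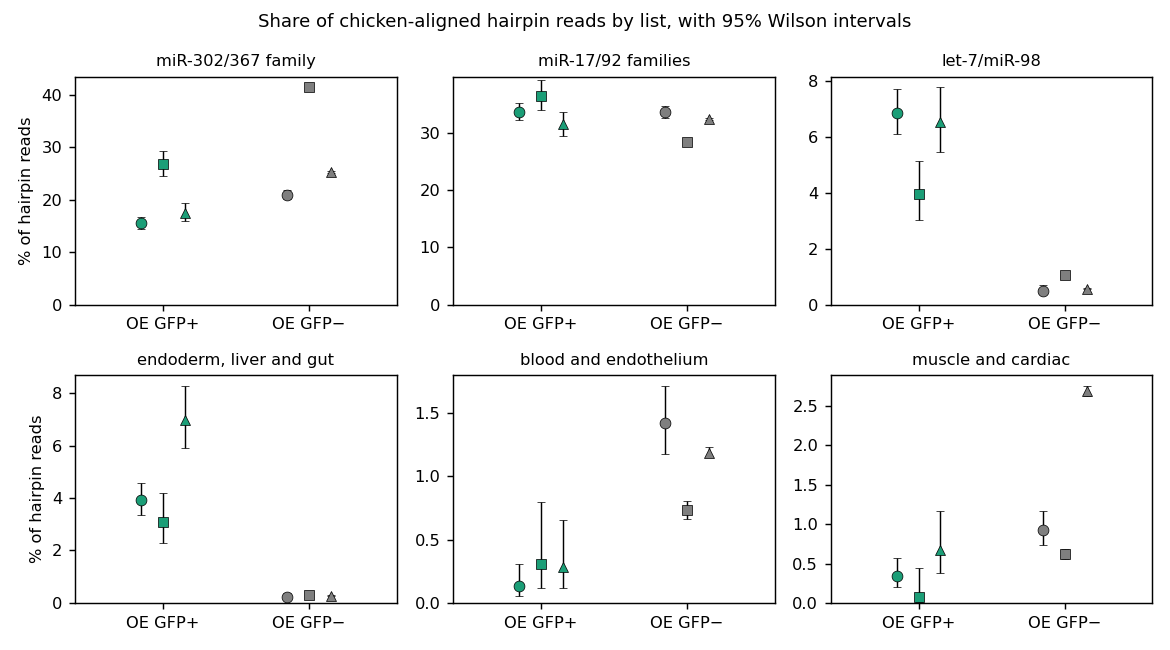
Share of chicken-aligned hairpin reads (percent, linear axes from 0) in each OE library for 6 lists, with 95% Wilson intervals that cover counting error only. The let-7 and liver and gut lists are higher in all GFP+ libraries, the blood and endothelium list lower in all, and the miR-302/miR-367 and miR-17/92 lists overlap.

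The other lists held few or no calls by limma without the block, a fit that called 5.3% higher and 1.52% lower over all tested hairpins. At those shares few or no calls would fall on lists this small, so a count of 0 says little about them. The miR-17/92 families, which promote proliferation, had 0 calls among 12 tested hairpins and a median log2 fold of -0.52. With the block 2 were lower (gga-mir-363 and gga-mir-17), beside 12.9% lower over all tested hairpins. These families made up 33.9% of hairpin reads in GFP+ against 31.4% in GFP− cells. gga-mir-92-2 was the most abundant hairpin in both groups, at 20.9% ± 1.49 of reads in GFP+ and 19.6% ± 1.14 in GFP− cells (SD, n = 3 each). Its log2 fold of -0.28 and that of gga-mir-92-1, -0.03, turned positive when libraries were scaled to their summed hairpin values. Among human-aligned hairpins, hsa-mir-92b had 386.3, 193.3 and 604.4 normalized reads in GFP+ and 162.2, 112.2 and 185.3 in GFP− libraries. Its log2 fold was 1.13 (adjusted p = 0.134 by limma and 0.0191 by DESeq2, within 0.0191 to 0.846 over all alternatives). Of the 12 human-aligned hairpins of these families tested, 3 had a log2 fold above 0, and their median was -0.46. gga-mir-17, named after its values were seen, had 13.4, 0 and 0 normalized reads in GFP+ and 39.1, 24.6 and 45.2 in GFP− libraries, 2 reads in all in GFP+ cells (limma adjusted p = 0.0695, 0.0324 with the block, and 0.015 to 0.299 over all alternatives). The neural list had 1 lower call among 13 (gga-mir-218-2), or 2 with the block, and a median of -0.07. The shares lower over all tested hairpins were 1.52% and 12.9% in these fits. The epithelial, mesenchymal, Hox cluster and stress lists had 0 calls among 3, 5, 2 and 3 tested hairpins, with medians of -0.60, -0.11, 0.73 and -0.44. With the block, which called 12.9% of all tested hairpins lower, limma called 1 of the 5 mesenchymal hairpins lower, the smooth muscle miRNA gga-mir-143. It had 26.7, 24.4 and 79.3 normalized reads in GFP+ and 97.7, 167.1 and 211.3 in GFP− libraries (adjusted p = 0.0722 without the block, 0.0271 with it, and 0.0132 to 0.44 over all alternatives). The 10 human seed relatives of miR-302 (miR-372, miR-373 and the miR-520 family) were too low to be tested.

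The human-aligned table gave 3 calls among 114 tested hairpins (limma). hsa-let-7b (log2 fold 2.56) and hsa-let-7c (2.20) were higher in GFP+ cells, each at adjusted p = 0.0361 (1.75% of those tested), and hsa-mir-218-1 was lower (-1.67, adjusted p = 0.0489; 0.877%). hsa-let-7c had 141.9, 154.6 and 146.5 normalized reads in GFP+ and 11.1, 19.8 and 7.95 in GFP− libraries. hsa-let-7b had 141.9, 231.9 and 109.9 in GFP+ and 0, 12.6 and 4.75 in GFP− libraries. hsa-mir-218-1 had 70.9, 38.7 and 36.6 in GFP+ and 202.7, 209.2 and 201.6 in GFP− libraries. In all 3 the groups did not overlap, and with the replicate block each stood at adjusted p = 0.0549 (limma), which misses the threshold, with ranges of 5.25e-07 to 0.226, 5.87e-06 to 0.226 and 0.0014 to 0.238 over all alternatives. Scaling to summed hairpin values gave 6 higher and 1 lower, and TMM scaling 2 higher and 3 lower. edgeR called 12 higher and 11 lower (10.5% and 9.65%), and with the block 6 and 9 (5.26% and 7.89%). DESeq2 called 14 higher and 9 lower (12.3% and 7.89%), and a fit over all 12 libraries 9 and 15 (7.89% and 13.2%). In all 3 GFP+ libraries 12 hairpins (10.5%) lay above every GFP− library and 20 (17.5%) below. Without GFP+ replicate 1 no hairpin was called by limma, and without GFP+ replicate 2 there were 11 higher and 6 lower calls. hsa-mir-126 had 55.2, 154.6 and 0 normalized reads in GFP+ cells, against 549.1, 378.8 and 545.6 in GFP− cells. It missed the threshold by limma (adjusted p = 0.0595, and 0.0549 with the block) and passed by edgeR (0.00983), DESeq2 (5.4e-06) and edgeR with the block (7.79e-06), within a range of 5.4e-06 to 0.661 over all alternatives. The tables share libraries and many reads, so they are not independent.

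The same GFP+ to GFP− comparison in the KD arm, whose construct targeted chick miR-302, lets the differences be set side by side, with no libraries in common. The let-7 family had a median log2 fold of 1.76 in the OE arm and 2.50 in the KD arm, and the endoderm, liver and gut list 2.23 and 2.90. The median of the chicken-aligned miR-302/miR-367 family was below 0 in both arms, at -0.77 in the OE arm and -0.32 in the KD arm. For gga-mir-122-1 the log2 fold was 3.35 in the OE arm and 3.45 in the KD arm, and for gga-let-7b 2.93 and 3.25. gga-mir-126 stood at -2.58 in the OE arm and -1.07 in the KD arm, and gga-mir-218-2 at -1.92 and -0.87. Of the 9 hairpins called in the OE arm by the fit of its own libraries, 7 were among the 13 called in the KD arm. The KD calls came from a fit over all 12 libraries, where 12 were higher (9.09%) and 1 lower (0.758%). With all 12 libraries the OE arm had 14 higher (10.6%) and 20 lower (15.2%). The counts of 9 and 13 thus came from different fits and do not compare the arms. Across the tested hairpins, which are not independent replicates, the 2 folds had a Pearson r of 0.857 and a Spearman rho of 0.8, as a description.

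The difference between the arms was itself tested over the 12 libraries. None of the tested chicken-aligned hairpins (0%) had a GFP+ to GFP− difference that differed between arms by limma, edgeR or DESeq2, although 11, 3 and 8 did at an unadjusted p under 0.05. Leaving out OE GFP+ replicate 1 gave 1 call. Of the 114 human-aligned hairpins 1 (0.877%) was called, hsa-mir-29a, which had no read in OE GFP+ cells and passed the level filter only through KD GFP+ cells.

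**Figure D5:**
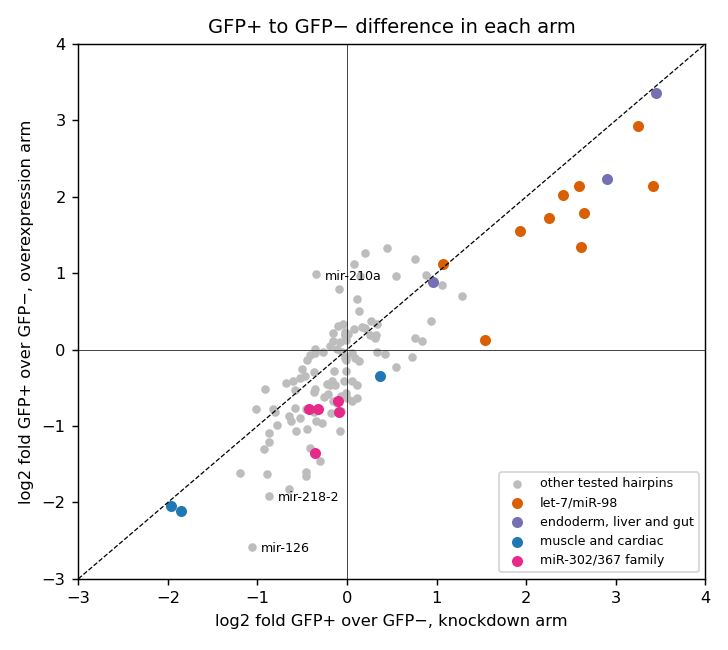
Log2 fold of GFP+ over GFP− cells in the overexpression arm (vertical axis) against that in the knockdown arm (horizontal axis) for the tested chicken-aligned hairpins; the dashed line marks equal folds. The let-7 and the endoderm, liver and gut hairpins lie above 0 in both arms, and gga-mir-126 lies at -2.58 and -1.07.

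Some hairpins differed between numbered pairs more than between GFP+ and GFP− cells, and they were chosen after their values were seen. gga-mir-2954, a bird miRNA that RefSeq places on chromosome Z, had 153.7, 877.4 and 935.7 normalized reads in GFP+ libraries, against 156.3, 1026 and 1442 in GFP− libraries. Both libraries of replicate 1 were low and the others high, with a log2 fold of -0.28 between the groups. gga-mir-10a, which lies in a Hox cluster, had 53.5, 609.3 and 158.6 in GFP+ and 11.7, 163.0 and 102.3 in GFP− libraries. Each GFP+ value was higher than its numbered partner and the groups overlapped (log2 fold 1.13, SE 0.82, limma adjusted p = 0.382).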

How the data were processed

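Small RNA was sequenced from 12 libraries of sorted chick embryo cells, 3 in each of 4 groups set by the labels. Per the labels' protocols, RNA was extracted with a miRNeasy kit and made into NEXTflex libraries that were size selected on a gel. Per the submitters' processing notes, FastQC 0.11.5, cutadapt and STAR 2.7.0f were used, with hg38 as a build. No source used here gives the chicken build, the counter or the normalization.

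The authors deposited a chicken-aligned and a human-aligned table of normalized signal. In each library every value above 0 was a whole multiple of its smallest value within 0.001 reads, and whole reads were recovered by that division for tests on counts. No mature arm was above 0, so all values are for hairpins. A repeated name kept its row of highest mean, which left out 61 chicken and 5 human entries. RefSeq names matched 774 of 850 chicken hairpins. The authors also deposited their own ratios of GFP+ over GFP− for 5 family members.

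The 6 OE libraries were fitted with limma 3.58.1 (R 4.3.3) on log2(value + 25) with an empirical Bayes trend, two-sided, for hairpins averaging 10 normalized reads or more over the 12 libraries. A fold change on that scale understates the change of low hairpins. The earlier pseudocount of 1 is below the worth of 1 read in the GFP+ libraries, and an earlier fit pooled their spread with that of the deeper KD libraries, so neither was kept as the main choice. edgeR 4.0.16 and DESeq2 1.42.0 were alternatives on recovered reads. Differences between arms came from a 12-library fit, and ratios and sums from exact permutation tests. For the log2 read ratios 0.5 reads were added to each count. The limma and edgeR fits of the OE libraries, without the block, were tested on simulated data, and the other fits were not.

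Same-numbered GFP+ and GFP− libraries deviated together in the chicken-aligned table (r = 0.371, 0.358 and 0.233 in the OE arm, and 0.144, 0.41 and 0.233 in the KD arm, across tested hairpins). Differently numbered libraries stood at -0.468 to 0.0347 in the OE arm. The deviations were taken from the mean of each group's 3 libraries, so part of that negative range is fixed by the centring. In the KD arm GFP+ replicate 1 had r = 0.155 with GFP− replicate 3, above the 0.144 with its own number. The numbers were taken to pair the samples, and blocked values are printed where they change a call. In the human-aligned table r was 0.185, 0.277 and -0.0346 in the OE arm and 0.0672, -0.0125 and -0.0197 in the KD arm, so 4 of the 6 pairs were below 0.1. There OE GFP+ replicate 1 had r = 0.222 with GFP− replicate 3, and GFP+ replicate 3 had 0.0916 with GFP− replicate 1. Both were above the values with their own numbers, so that table does not establish the pairing. Named hairpins are the miR-302 and miR-367 members, calls, near misses by smallest p, the most abundant hairpins, and up to 4 members of each list by level. Members and lists were chosen with earlier results of these data known.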

Additional observations from a re-analysis of the deposited data

Results flagged for a closer look

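hsa-mir-29a drew attention because limma without the block called its GFP+ to GFP− difference as differing between the arms. It passed the level filter only through KD GFP+ cells, so its selection and this call rest on the same high values. It had no read in the 3 OE GFP+ libraries, against 0, 1.80 and 0.898 normalized reads in OE GFP− libraries. In the KD arm it had 32.7, 36.9 and 54.8 in GFP+ and 3.96, 2.90 and 2.49 in GFP− libraries. The log2 difference, OE minus KD, was -1.28 (limma adjusted p = 0.0353, and no call by edgeR or DESeq2 or with the replicate block). The KD GFP+ mean of 41.5 normalized reads would have given 8.595 reads over the 3 OE GFP+ libraries, where 0 were seen. The OE GFP− level of 0.898 is below the worth of 1 read in each of these libraries, so a GFP+ level below it was not detectable at this depth. A rise to the KD GFP+ level would have been expected to give reads, while a smaller rise could have gone unseen.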

How the results depend on the processing

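Which hairpins were called depended on the settings more than their direction did. Higher and lower calls in the chicken-aligned table, 7 and 2 by the limma fit, were 1 and 0 with no filter, 14 and 20 with all 12 libraries, 12 and 13 by DESeq2, 11 and 17 with the replicate block that pairs same-numbered libraries, and 14 and 7 by edgeR with that block. Lower calls were 4 with pseudocount 1, 7 with a filter of 75, 1 by edgeR and 1 with summed-hairpin scaling, an alternative that, like edgeR with the block, was chosen after seeing the data. Leaving out a replicate gave 2 to 10 higher and 0 to 7 lower. In the human-aligned table, 2 higher and 1 lower became 0 and 0 with pseudocount 1, with no filter and with the replicate block; 4 and 5 with a filter of 75; 9 and 15 with 12 libraries; 12 and 11 by edgeR; 14 and 9 by DESeq2; and 6 and 9 by edgeR with the block. Lower calls were 0 with pseudocount 10 and 3 with TMM; higher calls were 6 with summed-hairpin scaling. Leaving out a replicate gave 0 to 11 higher and 0 to 6 lower. Calls of the arm difference were 0 in chicken (0 to 1 without a replicate) and 1 in human (3 with pseudocount 1, 0 by edgeR, DESeq2 and the block, 0 to 2 without a replicate). The cause of these changes was not tested. Signs also turned for uncalled values. The miR-302b ratio became 0.083 with normalized values, the miR-302c ratio ranged from -0.0041 to 0.33 and the human-aligned family sum from -0.78 to 0.14 without a replicate. With summed-hairpin scaling, gga-mir-1811 became 0.091, gga-mir-92-2 0.096, gga-mir-92-1 0.35, gga-mir-128-1 0.19, hsa-mir-302c 0.074, hsa-mir-92a-1 0.14, hsa-mir-140 0.11 and hsa-mir-21 0.019. gga-mir-92-1 was 0.085 with TMM, 0.053 by edgeR, 0.013 by DESeq2 and 0.043 by edgeR with the block; gga-mir-128-1 was 0.24, 0.21 and 0.037 by the last 3; gga-mir-10b was -0.45 with pseudocount 1. hsa-mir-128-1 was 0.090 by edgeR and 0.32 by DESeq2, and hsa-mir-29a 1.46 by DESeq2. Without a replicate, log2 folds ranged from -0.32 to 0.080 (gga-mir-1811), -0.19 to 0.11 (gga-mir-92-1), -0.50 to 0.30 (gga-mir-128-1), -0.16 to 0.45 (gga-mir-199-2), -0.030 to 0.57 (gga-mir-199-1), -0.78 to 1.06 (gga-mir-10b), -0.54 to 0.18 (hsa-mir-302c), -0.30 to 0.034 (hsa-mir-92a-1), -0.92 to 0.65 (hsa-mir-128-1), -0.18 to 0.49 (hsa-mir-375), -0.62 to 0.22 (hsa-mir-200b), -0.42 to 0.18 (hsa-mir-140), -0.37 to 1.19 (hsa-mir-10a) and -0.36 to 0.0039 (hsa-mir-21). Depth limits every statement on hairpins of under 3 reads in a GFP+ library, and 3 libraries against 3 cannot pass an exact test at 0.05.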
